A study of Zea mays with 6 samples.

Results

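The 117 loci described here are the most abundant transcribed loci of maize (Zea mays) kernels at 15 days after pollination, outside the ends of chromosomes 4 and 7 where loci of clusters fall in o11. They were chosen from 32666 loci as those with a mean over the 6 libraries of at least 500 FPKM (fragments counted per length of transcript and per size of the library) and with at least 1 FPKM in all 6, leaving out chromosome 4 below 35 Mb and chromosome 7 below 30 Mb. In all, 142 loci had a mean of at least 500 FPKM. Of the other 25, 23 lay in the left-out stretches and 2 were under 1 FPKM in at least 1 library. Compared were 3 libraries of kernels homozygous for the o11 mutation and 3 libraries of wild-type (WT) kernels. Labels name the tissue as kernel and the series' design text as endosperm. Replicates 2 and 3 of both genotypes came from pooled kernels, and for replicate 1 pooling is not mentioned. The allele, the inbred background and the number of plants are not given in the sources used here, so each p-value reflects only how far these libraries scatter, and part of that scatter may be technical.

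The endosperm is the part of the cereal kernel that stores starch and protein for the seedling. During grain filling a small set of transcripts, those of seed storage proteins among them, makes up a large part of its messenger RNA. Opaque11 encodes an endosperm transcription factor with a helix-loop-helix domain, and kernels of opaque mutants lack the glassy look of normal maize kernels. The files list loci by position on B73 RefGen_v3 and give no gene identifiers, so which of the 117 loci encode storage proteins, enzymes or other products was not determined and the labelled tissue was not checked against marker genes. Loci are called here by chromosome and first base. In bulk tissue, fewer cells of a type and less RNA per cell cannot be told apart.

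Both the mean level and the left-out stretches shaped the membership. The mean ignores genotype, but the stretches were left out because their clusters were known to be lower in o11, so the balance of higher and lower members is a description and supports nothing. A locus could also pass through 1 genotype alone, and such a locus had to differ. The o11 mean reached 500 FPKM and the WT mean did not for 9 members, of which 8 rose with the replicate number as a block in the test. The reverse held for 5, of which 4 fell. Both means reached the limit for 103. Just inside the limit lay loci on chromosome 6 at 151832102, chromosome 7 at 136181558 and chromosome 5 at 12302727, with means of 516, 505 and 504 FPKM. Just outside it were loci on chromosome 5 at 37251082, chromosome 1 at 263817609 and chromosome 2 at 184777051, with means of 499, 496 and 494 FPKM.

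Summed FPKM per library ran from 784761 to 1001869 in o11 and from 847961 to 1072271 in WT, and was lower in o11 in all 3 same-numbered pairs. How many fragments each library held is not given in the sources used here. For replicate 1 of both genotypes the processing notes list other tools than for replicates 2 and 3. Plastid and mitochondrial loci summed to between 35.1 and 228 FPKM in o11 and between 37.0 and 268 FPKM in WT, highest in replicate 2 of both genotypes.

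Levels dropped steeply after the first few loci. The 3 loci with means of 10000 FPKM or more held 32.3% of the members' summed mean level, 4 more between 5000 and 10000 FPKM held 11.3%, and the 18 between 2000 and 5000 FPKM held 21.7%. Another 34 lay between 1000 and 2000 FPKM and 58 between 500 and 1000 FPKM. The median mean level was 1003 FPKM, against 9.63 FPKM over all 22314 loci that passed the filter of at least 1 FPKM in at least 3 libraries. All 117 members passed that filter, as their choice requires.

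**Figure D1:**
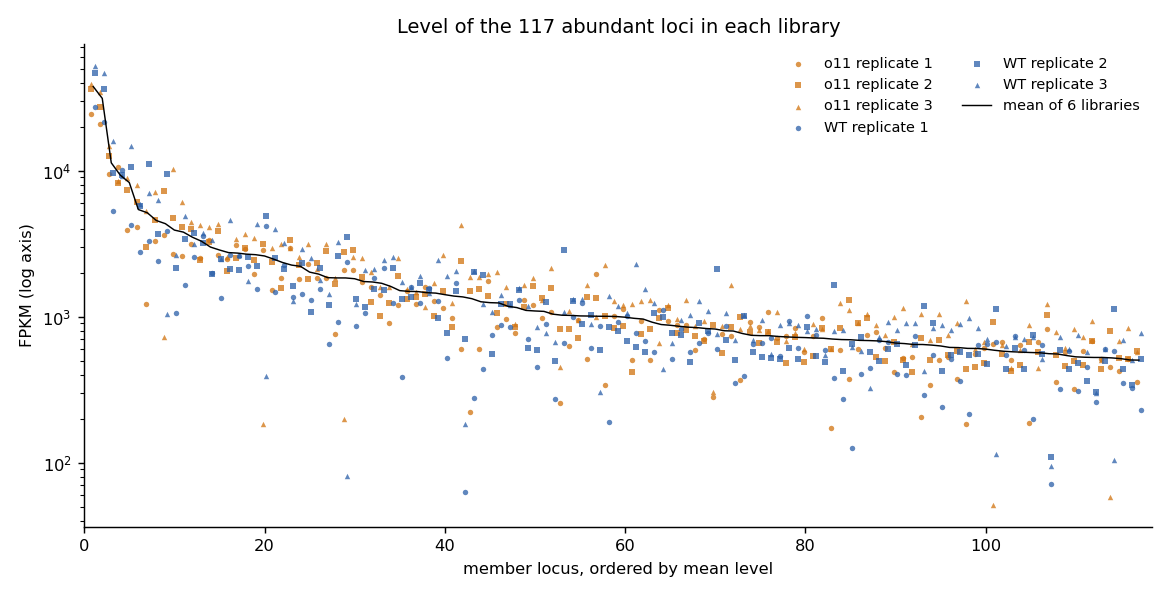
FPKM (log axis) of each of the 117 abundant loci in the 3 o11 and the 3 WT libraries, with loci ordered by the mean over the 6 libraries (line). Levels drop from a mean of 37648 FPKM at the first locus to 504 FPKM at the last, and a few loci have single replicates far below their own mean.

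The 2 most abundant loci stood apart from the rest. On chromosome 6, the 950-bp locus from 44541825 to 44542774 was at 24573, 36105 and 39022 FPKM in o11 replicates 1 to 3 and at 27298, 46752 and 52140 FPKM in WT replicates 1 to 3. Alone it held 3.13%, 4.33% and 3.89% of the summed FPKM in o11 and 3.22%, 4.93% and 4.86% in WT. It was the highest or next to highest locus in each o11 library, and in WT it ranked 3 in replicate 1 and 1 in the others. The 1076-bp locus on chromosome 2 from 183991961 to 183993036 was at 20936, 27323 and 34668 FPKM in o11 and at 21415, 36308 and 46976 FPKM in WT. Both loci had lower values in o11 in all 3 pairs, with differences of -0.15, -0.37 and -0.42 and of -0.03, -0.41 and -0.44 on the log2(FPKM + 1) scale, yet the genotypes overlapped at both. Neither passed the test (limma adjusted p = 0.924 and 0.926, and 0.415 and 0.433 with the replicate number as a block). Their mean differences of -0.31 and -0.29 were -0.27 and -0.25 with upper-quartile scaling and -0.18 and -0.16 as shares of the library. With quantile normalization, which sets values by rank alone, they were 0.08 and 0.29. Both loci had equal ranks in o11 and WT in pairs 2 and 3. Among the 10 most abundant loci, 5 uncalled ones had a mean difference below 0 in FPKM. With quantile normalization 4 of those 5 were above 0, and all 8 uncalled loci lay between -0.07 and 0.94.

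Another 6 of the 10 most abundant loci were likewise not called by limma in either model. Chromosome 1 at 197301249 had 9429, 12660 and 14838 FPKM in o11 and 5333, 9630 and 16003 FPKM in WT, so that o11 was higher in pairs 1 and 2 and lower in pair 3. The chromosome 7 locus at 120206897 had 10622, 8253 and 8428 FPKM in o11 and 10062, 9374 and 9130 FPKM in WT. Chromosome 2 at 160784375 had 3925, 7421 and 8959 FPKM in o11 and 4260, 10530 and 14637 FPKM in WT, lower in o11 in each pair and lowest in replicate 1 of both genotypes. At all 3 loci the range over replicates within each genotype overlapped that of the other genotype.

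The sixth and the eighth locus by level had higher values in o11 in each pair. Chromosome 1 at 178503667 had 4099, 6089 and 7950 FPKM in o11 and 2793, 5695 and 5875 FPKM in WT. Chromosome 6 at 40050689 had 3287, 4572 and 7089 FPKM in o11 and 2413, 3707 and 6261 FPKM in WT. In both the genotypes overlapped, because WT replicate 3 exceeded o11 replicate 1. Chromosome 4 at 195937821 had 3647, 7268 and 726 FPKM in o11 and 3851, 9468 and 1045 FPKM in WT, with replicate 3 far below the others in both genotypes. The mean difference of the chromosome 7 locus at 120206897 was -0.07 in FPKM, -0.03 with upper-quartile scaling and 0.06 as a share of the library. With quantile normalization it was 0.71. The remaining 2 of the first 10, on chromosome 1 at 6802700 and chromosome 8 at 133996633, passed the test with the block and are described with the falls and rises.

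Without a block, 1 of the 117 members rose in o11 and 0 fell (limma with Benjamini-Hochberg adjustment over all 22314 loci, threshold 0.05), against a background of 0.52% of tested loci that rose and 0.273% that fell. At an unadjusted p under 0.05 there were 18 members, 15.4%, against 14.9% of all tested loci. With the replicate number as a block, which the data but not the labels pair, 32 members (27.4%) rose and 19 (16.2%) fell, against 9.83% and 9.33% of all tested loci. Both counts varied with the libraries used, fewer libraries also leaving fewer degrees of freedom: with the block, 6 rose and 2 fell without replicate 1, 12 and 2 without replicate 2, and 36 and 21 without replicate 3. The share of all tested loci called in those reduced fits is not given here. Among the 103 members with both genotype means at 500 FPKM or more, 24 rose and 15 fell with the block.

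Calls also varied with level and with locus span in the whole table, so the background for abundant loci is not a single figure. Among the 919 tested loci with means of 100 to 500 FPKM, 19.8% rose and 18.3% fell with the block, and among the 9865 loci of 10 to 100 FPKM 9.90% rose and 14.4% fell. The members' median span was 2125 bp, against 3695 bp for all tested loci. Over all tested loci, 14.7% of those spanning from 1000 to under 3000 bp rose and 5.28% fell, whereas 6.67% of those spanning 3000 bp or more rose and 11.6% fell. The 39 members spanning 3000 bp or more held 11 rises (28.2%) and 7 falls (17.9%), and the 49 members from 1000 to under 3000 bp held 15 (30.6%) and 5 (10.2%). The 20 members from 500 to under 1000 bp held 4 rises and 4 falls, against 15.7% and 7.97% of tested loci of that span. The 9 members under 500 bp held 2 rises (22.2%) and 3 falls (33.3%), against 9.05% and 8.04% of tested loci of that span. The part of level and span in the members' counts was not tested.

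In same-numbered pairs, 50 members were higher in o11 in all 3 pairs, 37 were lower in all 3, and 30 had unlike signs. Over all tested loci 29.4% were higher in all 3 pairs, 29.6% lower and 40.9% of unlike sign. Expressed as shares of each library, 59 members were higher and 28 lower in all 3 pairs, a split of 67.8% to the higher side against 57.5% on the FPKM scale; over all tested loci the same change of scale moved the split to 67.9%, against 49.8%, and the median difference to 0.12 on the log2 scale. The median difference of the members was 0.10 on the FPKM scale and 0.23 as shares. All 32 members that rose with the block were higher in all 3 pairs, and all 19 that fell were lower in all 3. The 3 o11 and 3 WT values did not overlap for 19 members that were above WT and 4 that were below it, or 16.2% and 3.42%, against 9.86% and 11.7% of all tested loci.

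**Figure D2:**
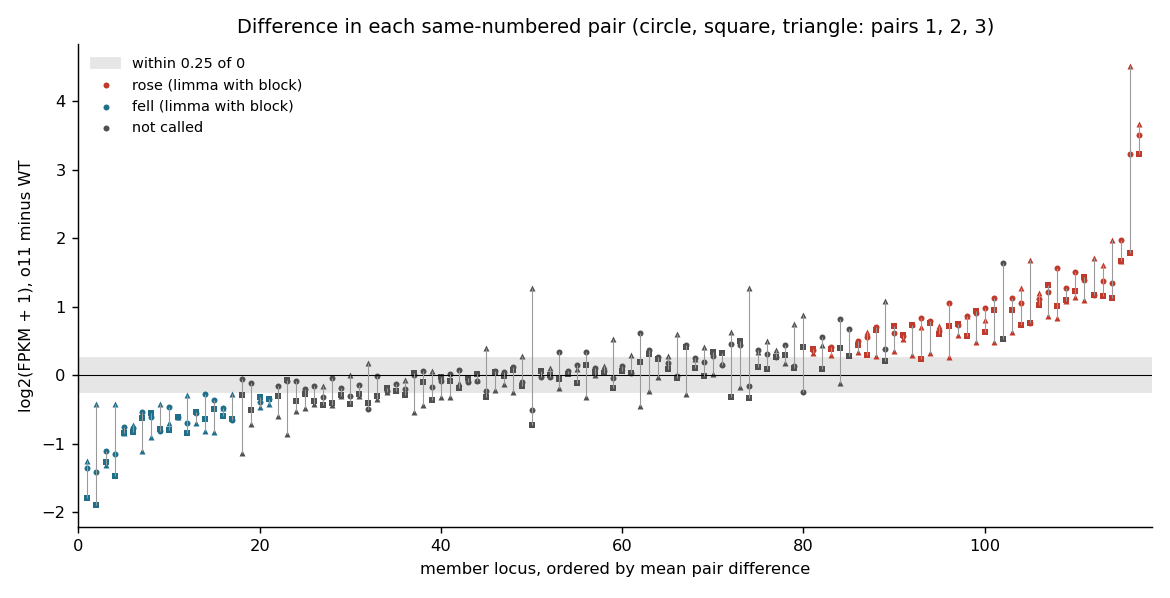
Difference in log2(FPKM + 1), o11 minus WT, in each of the 3 same-numbered pairs (circle, square and triangle) for the 117 members, ordered by the mean of the 3. Colours mark loci that rose (32) or fell (19) in limma with the replicate block, the grey lines join the 3 pairs of a locus, and the grey band marks differences within 0.25 of 0.

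Among the 30 members of unlike sign, the pair that went against the other two was replicate 3 in 17, replicate 1 in 8 and replicate 2 in 5. Over all tested loci of unlike sign replicate 3 was the odd pair in 43.9%. An example is chromosome 9 at 139199334, with 205, 719 and 1035 FPKM in o11 and 291, 1192 and 427 FPKM in WT, lower in o11 in pairs 1 and 2 and higher in pair 3. Its mean difference was 0.02 on the log2 scale although no pair lay within 0.25 of 0.

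The locus called in both models lay on chromosome 6 from 34438653 to 34440618 and had the largest rise. It was at 822, 1031 and 1217 FPKM in o11 replicates 1 to 3 and at 71.8, 109 and 95.3 FPKM in WT replicates 1 to 3. Every o11 library was thus several times as high as the highest WT library. The means were 1024 ± 198 FPKM in o11 and 92.1 ± 18.9 FPKM in WT (SD, n = 3 each), an 11.1-fold ratio, or 0.117% of the library on average in o11 and 0.00962% in WT. The log2 change was 3.46 (SE 0.24, limma adjusted p = 0.0107, and 0.00257 with the block). Since the WT mean alone is under 500 FPKM, this locus is a member through its o11 level. Leaving out any 1 library ended the call without the block (adjusted p 0.0503 to 0.1), at log2 changes of 3.30 to 3.61.

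The next largest rise, less even over pairs, was on chromosome 5 from 23858169 to 23858843. Its o11 libraries were at 602, 2424 and 4216 FPKM and its WT libraries at 63.4, 705 and 183 FPKM. The genotypes overlapped, since WT replicate 2 exceeded o11 replicate 1, but each o11 library was well above its own pair. Its WT mean of 317 FPKM is under the limit, so it too is a member only through its o11 level. The log2 change was 3.17 (SE 0.50 with the block, limma adjusted p = 0.0176, and 0.226 without the block), with pair differences of 3.23, 1.78 and 4.52. Without both replicate 1 libraries the blocked call was lost (limma adjusted p = 0.0826).

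The rises that followed were more uniform over pairs. Chromosome 7 from 135004533 to 135006737 had 1082, 1574 and 2142 FPKM in o11 and 275, 496 and 672 FPKM in WT, with no overlap and a 3.32-fold ratio of means (log2 change 1.77, SE 0.10 with the block, limma adjusted p = 0.0033, and 0.123 without). It passed only through its o11 level, as its WT mean was 481 FPKM. Chromosome 8 from 133996633 to 133997534, the tenth locus by level, had 2679, 4706 and 10297 FPKM in o11 and 1055, 2142 and 2627 FPKM in WT. There the lowest o11 library only just exceeded the highest WT library, and o11 replicate 3 was the highest value by a wide margin. Its log2 change was 1.48 (SE 0.19 with the block, limma adjusted p = 0.0121, 0.339 without the block, and 0.0665 with the block but without both replicate 1 libraries).

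Chromosome 3 from 156404566 to 156407511 had 682, 677 and 927 FPKM in o11 and 262, 303 and 302 FPKM in WT. All 3 o11 values were well above the highest WT value, and this member came closest to the threshold of those not called without the block (log2 change 1.38, limma adjusted p = 0.0525, and 0.00536 with it). Its WT mean of 289 FPKM also makes it a member only through o11. Chromosome 8 from 171118734 to 171119464 ran in the opposite order over replicates, with 1946, 1335 and 998 FPKM in o11 and 863, 594 and 305 FPKM in WT. Its groups did not overlap either (log2 change 1.35, limma adjusted p = 0.24, and 0.00765 with the block).

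**Figure D3:**
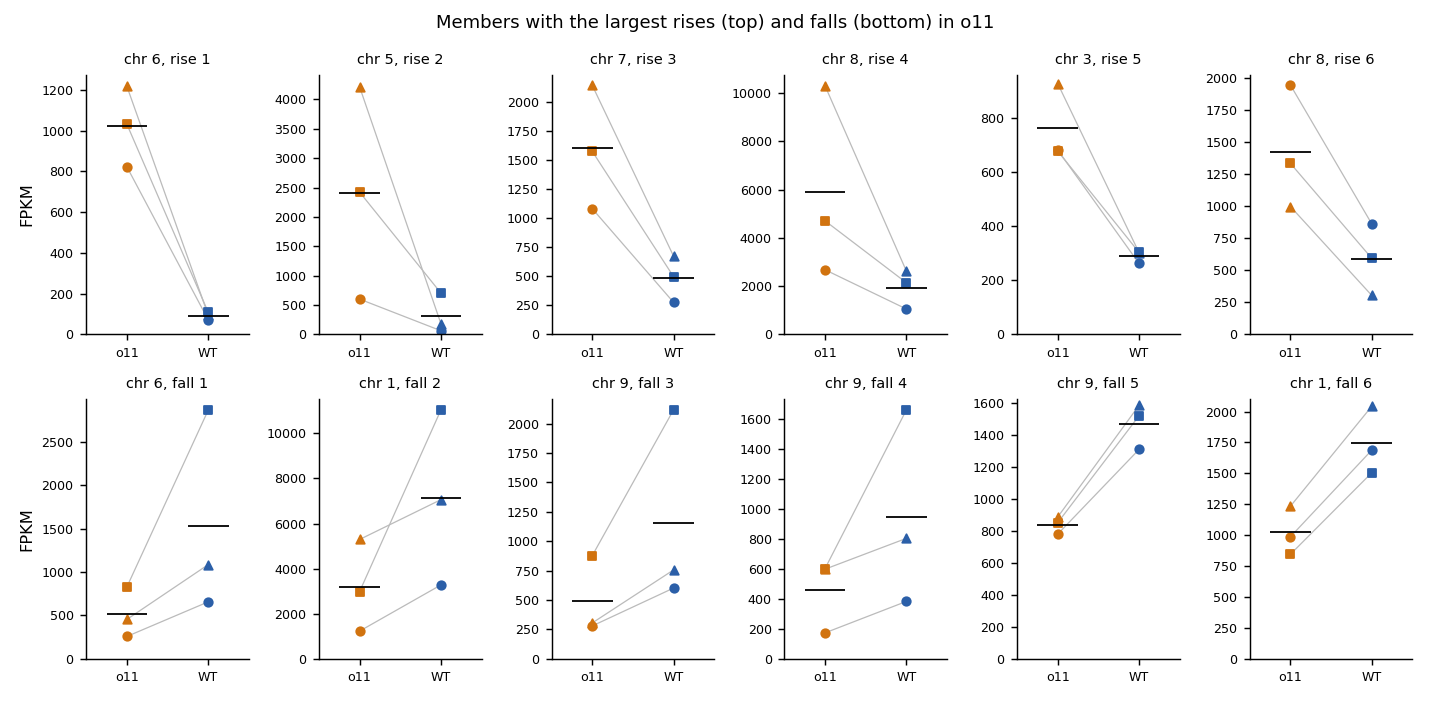
FPKM of the 6 members with the largest rises (top row) and the 6 with the largest falls (bottom row) among those called in limma with the replicate block, o11 at the left of each panel and WT at the right. Symbols are single libraries (circle, square and triangle for replicates 1, 2 and 3), grey lines join same-numbered libraries and black bars are means of 3; each axis starts at 0 and has its own range.

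Another 26 members rose with the block, by 0.36 to 1.31 on the log2 scale (limma adjusted p 0.00536 to 0.0474), at mean levels of 505 to 2998 FPKM. The groups did not overlap for 13 of them. Chromosome 1 at 141745664 had 1200, 1619 and 1839 FPKM in o11 and 455, 596 and 855 FPKM in WT. Chromosome 5 at 167791848 had 1851, 2819 and 3152 FPKM in o11 and 647, 1204 and 1427 FPKM in WT. In both, every o11 library was above every WT library.

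Among the more abundant of these rises, chromosome 8 at 108689439 was level over replicates, with 2962, 3334 and 2963 FPKM in o11 and 1362, 1629 and 1284 FPKM in WT. Chromosome 7 at 173595109 had 2095, 2839 and 2574 FPKM in o11 and 862, 1326 and 1216 FPKM in WT. Chromosome 8 at 14543546 had 2653, 3880 and 4325 FPKM in o11 and 1347, 2491 and 2479 FPKM in WT. All 3 of these loci showed o11 above WT without overlap. Chromosome 9 at 22112240 had 1761, 1387 and 1953 FPKM in o11 and 755, 553 and 1076 FPKM in WT, again without overlap.

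Rises of moderate size were repeated closely over pairs at some loci. Chromosome 1 at 125081143 differed by 0.58, 0.59 and 0.53 on the log2 scale in pairs 1 to 3, from 1070, 785 and 801 FPKM in o11 and 715, 519 and 556 FPKM in WT. Chromosome 5 at 81191741, a member only through its o11 level, differed by 0.37, 0.38 and 0.32, although its o11 values of 586, 468 and 721 FPKM overlapped the WT values of 453, 360 and 576 FPKM. The locus with the longest span of all those tested, 191581 bp on chromosome 3 from 23906023 to 24097603, also rose with the block, with 598, 902 and 908 FPKM in o11 and 407, 731 and 584 FPKM in WT.

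Of the falls with the block, the largest was on chromosome 6 from 140536934 to 140537348, a locus of 415 bp. It was at 257, 826 and 453 FPKM in o11 and at 656, 2863 and 1084 FPKM in WT, and the groups overlapped because replicate 2 was high in both genotypes. Pair differences were -1.35, -1.79 and -1.26 on the log2 scale (log2 change -1.47, SE 0.13, limma adjusted p = 0.00614 with the block and 0.366 without it). Chromosome 1 from 6802700 to 6803523, the seventh locus by level, was at 1228, 2978 and 5293 FPKM in o11 and at 3276, 11040 and 7060 FPKM in WT. Its pair differences of -1.42, -1.89 and -0.42 were uneven (log2 change -1.24, limma adjusted p = 0.0455 with the block and 0.5 without it). Without both replicate 1 or both replicate 2 libraries its blocked call was lost (limma adjusted p = 0.182 and 0.151), as it was with no filter on low values and with quantile normalization.

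A pair of very short loci on chromosome 9 followed. The 254-bp locus from 147332976 to 147333229 was at 280, 877 and 305 FPKM in o11 and at 602, 2118 and 756 FPKM in WT. Each pair showed about the same fall, by 1.10, 1.27 and 1.31 on the log2 scale (limma adjusted p = 0.00436 with the block and 0.441 without it). The 255-bp locus from 151382931 to 151383185 was at 173, 601 and 598 FPKM in o11 and at 383, 1659 and 803 FPKM in WT (log2 change -1.01, limma adjusted p = 0.0315 with the block and 0.581 without it). Its blocked call was lost without both replicate 1 libraries, without both replicate 2 libraries and with no filter on low values (limma adjusted p = 0.141, 0.102 and 0.0576). The o11 means of these loci were 487 and 457 FPKM, so both are members only through their WT level.

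At the other 2 of the 6 largest falls every o11 library was below every WT library. Chromosome 9 from 102483351 to 102485242 was at 779, 850 and 885 FPKM in o11 and at 1308, 1518 and 1583 FPKM in WT, with no overlap (means 838 ± 54.4 and 1469 ± 144 FPKM, SD, n = 3 each). Its log2 change was -0.81 (limma adjusted p = 0.00914 with the block and 0.177 without it). Chromosome 1 from 296097227 to 296102118 was at 987, 845 and 1234 FPKM in o11 and at 1688, 1506 and 2043 FPKM in WT, again with no overlap (log2 change -0.78, limma adjusted p = 0.0107 with the block and 0.267 without it). Both blocked calls were lost without both replicate 1 libraries (limma adjusted p = 0.0661 and 0.0752) or both replicate 2 libraries (0.0619 and 0.0726).

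A further 13 members fell with the block, by 0.37 to 0.75 on the log2 scale (limma adjusted p 0.0146 to 0.0467). Groups without overlap were seen in 2 of them. Chromosome 1 at 25742093 was at 570, 489 and 600 FPKM in o11 and at 1006, 846 and 802 FPKM in WT. Chromosome 3 at 213704747, a member only through its WT level, was at 507, 423 and 445 FPKM in o11 and at 741, 611 and 722 FPKM in WT. The most even difference of all 117 members was on chromosome 5 from 159722272 to 159769511, a 47240-bp locus at 1412, 1009 and 1600 FPKM in o11 and 2157, 1534 and 2443 FPKM in WT, whose 3 pair differences lay between -0.61 and -0.60.

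The members that held, with a log2 difference within 0.25 of 0 in all 3 pairs, numbered 15. They made up 12.8% of the members, against 19.1% of all tested loci. Their means ran from 526 to 9312 FPKM, with 3 at 1000 FPKM or more. With shares of the library in place of FPKM 19 members held, and with quantile normalization 13. Limma with the block called 0 of the 15, but their choice by small differences made a call unlikely beforehand.

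Of these, 5 had mean differences closest to 0. Chromosome 9 at 88067950 had 644, 464 and 591 FPKM in o11 and 589, 440 and 700 FPKM in WT. Chromosome 1 at 247606591 had 570, 457 and 606 FPKM in o11 and 578, 439 and 598 FPKM in WT. In both, replicate 2 was the lowest library of each genotype.

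Chromosome 4 at 218054500 had 531, 548 and 744 FPKM in o11 and 513, 550 and 809 FPKM in WT. Chromosome 3 at 17832286 had 739, 541 and 890 FPKM in o11 and 749, 541 and 827 FPKM in WT. Chromosome 4 at 237423191 had 671, 575 and 444 FPKM in o11 and 639, 553 and 514 FPKM in WT. At these 3 loci the spread over replicates within a genotype was wider than any difference within a pair. The 15 held loci spanned 1315 to 6159 bp, and none of the 29 members under 1000 bp was among them.

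The spread between replicates was wide, and both genotypes shared its pattern. The median coefficient of variation within a genotype was 24.5% in o11 and 31.9% in WT, against 20.2% and 23.7% over all tested loci. It varied with span. Under 500 bp it was 61.7% and 68.6%, against 57.3% and 65.9% of tested loci of that span. From 500 to under 1000 bp it was 40.0% and 50.6%, against 41.0% and 47.9%. From 1000 to under 3000 bp members varied less, at 23.8% and 25.8% against 27.2% and 33.3%. At 3000 bp or more they varied more, at 19.3% and 22.7% against 15.8% and 18.3%. Replicate 3 exceeded the mean of the other replicates in both genotypes for 94 members. Replicate 1 lay below the mean of the other replicates in both for 75. The matching shares of all tested loci are not given here. The median difference of replicate 3 was 0.44 in o11 and 0.46 in WT on the log2 scale, against 0.04 and 0.05 over all tested loci. For replicate 1 the members' medians were -0.33 in o11 and -0.38 in WT, against -0.02 and -0.03. Across the 117 loci the replicate 1 difference in o11 followed that in WT (Spearman's rho 0.94), and the replicate 3 difference did so less closely (rho 0.64). These coefficients are descriptions across loci, which share libraries and are not independent.

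Short members were those most reduced in replicate 1. All 9 members under 500 bp were lower in replicate 1 in both genotypes, with medians of -1.79 in o11 and -1.75 in WT. The 20 members from 500 to under 1000 bp had medians of -0.51 and -0.59, the 49 from 1000 to under 3000 bp -0.44 and -0.53, and the 39 of 3000 bp or more 0.09 and -0.05. Over all tested loci the medians of the shortest class were -0.64 in o11 and -0.78 in WT. For the longer classes in turn they were -0.35, -0.19 and 0.05 in o11 and -0.41, -0.22 and 0.06 in WT. In all, 16 members (13.7%, against 2.25% of all tested loci) were at least 2-fold lower in replicate 1 in both genotypes. The fold is against the mean of the other replicates on the log2 scale. Of the 16, 13 spanned under 1000 bp. Span and the replicate 1 difference had rho values of 0.52 in o11 and 0.47 in WT over the 117 members. Of these 16 loci, 8 were called with the block, near the share of 43.6% among all members, against 19.2% of all tested loci. Among them were the rises on chromosome 5 at 23858169 and chromosome 8 at 133996633 and the falls on chromosome 6 at 140536934, chromosome 1 at 6802700 and chromosome 9 at 151382931. The tools listed for replicate 1 differ from those of the other replicates, and their part in this was not tested.

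**Figure D4:**
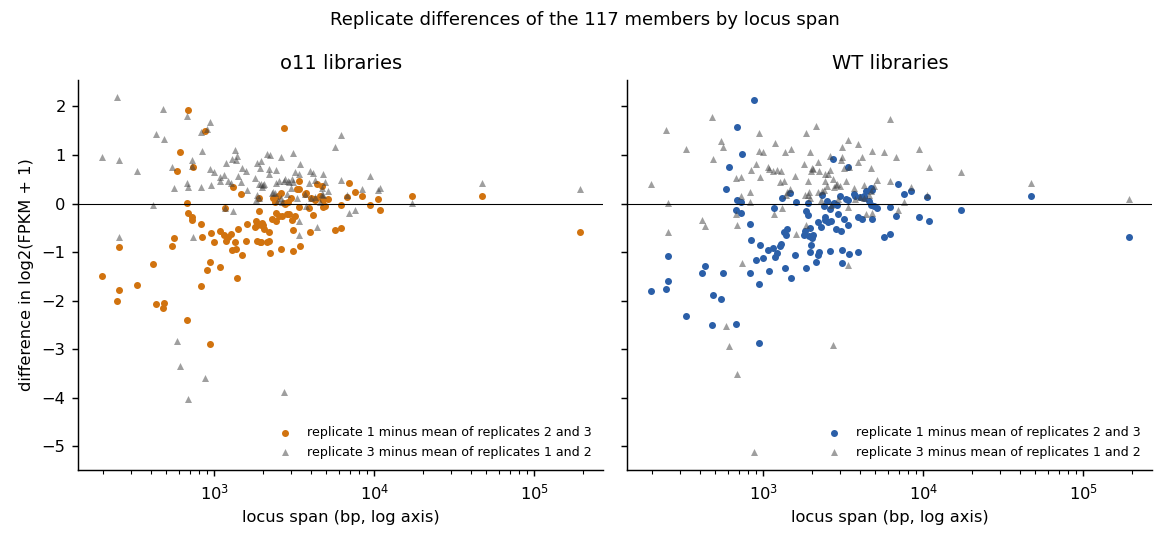
Difference in log2(FPKM + 1) of replicate 1 from the mean of replicates 2 and 3 (coloured circles) and of replicate 3 from the mean of replicates 1 and 2 (grey triangles) against locus span (log axis), for the 117 members in o11 (left) and WT (right). Circles of loci under 500 bp all lie below 0 in both genotypes, and 5 triangles per panel lie below -2.

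A strong example is chromosome 5 at 3422925, a 941-bp locus with 223, 1506 and 1860 FPKM in o11 and 278, 2038 and 2063 FPKM in WT. Replicate 1 was several times below the other replicates in both genotypes, while the differences within pairs were only -0.32, -0.44 and -0.15 on the log2 scale. Chromosome 3 at 179928763, of 474 bp, had 338, 1010 and 2263 FPKM in o11 and 190, 853 and 1381 FPKM in WT and rose with the block (limma adjusted p = 0.0425). The shortest member, 199 bp on chromosome 6 at 160533097, had 601, 1540 and 1875 FPKM in o11 and 438, 1922 and 1214 FPKM in WT, and its pairs had unlike signs.

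At a few loci replicate 3 was the low one. In both genotypes, 5 of the 117 members (4.27%, against 1.27% of all tested loci) were at least 4-fold lower in replicate 3. The fold is again against the mean of the other replicates on the log2 scale. Chromosome 3 at 138651695 had 2877, 3158 and 183 FPKM in o11 and 4158, 4854 and 395 FPKM in WT. Chromosome 10 at 101536930 had 2100, 2791 and 199 FPKM in o11 and 2351, 3527 and 81.6 FPKM in WT. In the first o11 was lower in each pair and fell with the block (limma adjusted p = 0.0284), whereas in the other pair 3 went the opposite way.

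Chromosome 2 at 218011745 had 648, 920 and 51.4 FPKM in o11 and 675, 1123 and 115 FPKM in WT. Chromosome 5 at 215369080 had 454, 804 and 58.4 FPKM in o11 and 582, 1129 and 105 FPKM in WT, and fell with the block (limma adjusted p = 0.0313), a member only through its WT level. The fifth was chromosome 4 at 195937821, described among the 10 most abundant loci. At all 5 loci the drop in replicate 3 was larger than any difference between genotypes.

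Together the members held 28.2% ± 2.68 of the summed FPKM of all 32666 loci in o11 and 25.8% ± 4.13 in WT (SD, n = 3 each). By library the shares were 25.1%, 29.8% and 29.7% in o11 replicates 1 to 3 and 21.1%, 28.3% and 28.1% in WT replicates 1 to 3, higher in o11 by 4.02, 1.47 and 1.56 percentage points within pairs. Their summed level hardly differed, at 247604 ± 50316 FPKM in o11 and 249506 ± 63610 FPKM in WT. The 23 abundant loci of the left-out stretches held 11.2% ± 1.72 in o11 and 19.1% ± 1.59 in WT, and 16 of them were lower in o11 in all 3 pairs, which was known when the stretches were left out.

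The members' larger share in o11 depended on what it was measured against. Out of the sum without the 25 left-out abundant loci, the members held 32.4% ± 2.30 in o11 and 32.5% ± 4.03 in WT, with pair differences of 1.94, -1.25 and -1.06 points. All loci of the files outside the 142 abundant ones held 58.8% ± 1.86 in o11 and 53.4% ± 1.76 in WT. The 2 abundant loci under 1 FPKM in at least 1 library held 5.07% of the sum in o11 replicate 1 and 4.89% in WT replicate 1. In the other libraries they held 0% to 0.381%, so the whole sums of replicate 1 hold a part that the others nearly lack. Without WT replicate 1 the difference of the members' share was -0.03 points, against 2.35 points with all 6 libraries. That comparison leaves o11 replicate 1, also low, without its pair. Without both replicate 1 libraries the difference was 1.51 points. These shares are scores over the members and were not tested.

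Split by level, the 2 most abundant members held 6.92% ± 0.98 in o11 and 7.92% ± 1.90 in WT, with pair differences of 0.05, -1.16 and -1.89 points. Loci 3 to 10 held 5.92% ± 0.84 in o11 and 5.41% ± 1.35 in WT, with pair differences of 1.06, -0.03 and 0.50 points. The other 107 members held 15.3% ± 0.89 in o11 and 12.5% ± 0.93 in WT, and were higher in o11 by 2.91, 2.67 and 2.94 points within pairs, with no overlap of the groups. These 107 include the 9 members that reached 500 FPKM through o11 alone, which had to be higher there, and the 5 through WT alone. Part of the difference may thus come from the choice of members, and how much was not tested. The share of these 107 was not among the planned results. Out of the sum without the 25 left-out abundant loci, a denominator applied after seeing the data, these 107 held 17.6% ± 0.76 in o11 and 15.8% ± 0.64 in WT. The mean difference was then 1.87 points, against 2.84 out of the whole sum. In FPKM those 107 loci summed to 112504, 130952 and 160285 in o11 and to 96918, 123442 and 140001 in WT. The 32 members that rose with the block held 5.96% ± 0.79 in o11 and 2.76% ± 0.42 in WT, and the 19 that fell held 2.07% ± 0.20 and 3.30% ± 0.74, as descriptions of loci picked by their direction.

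**Figure D5:**
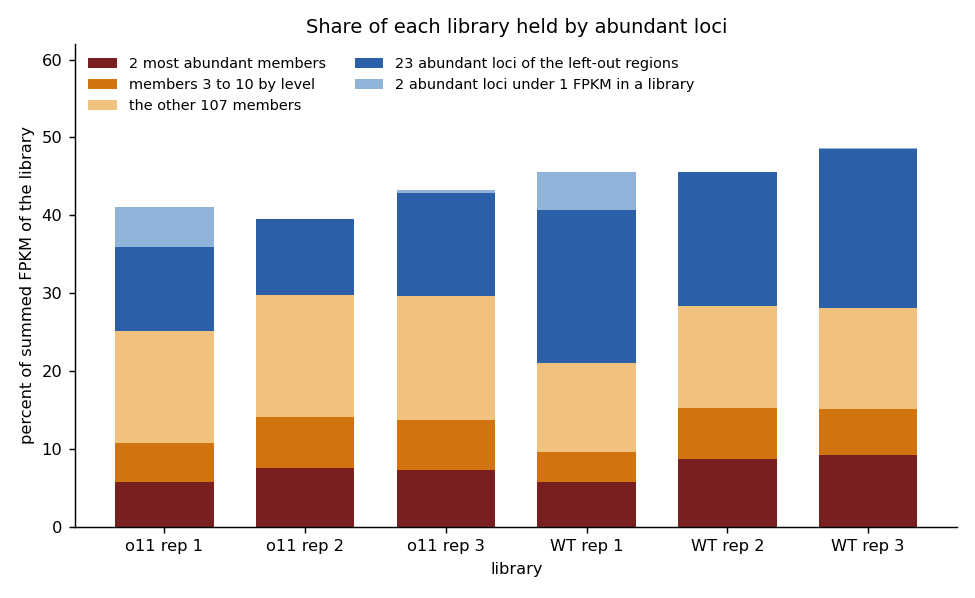
Share of the summed FPKM of each library held by the 2 most abundant members, members 3 to 10, the other 107 members, the 23 abundant loci of the left-out stretches and the 2 abundant loci under 1 FPKM in a library, for o11 (left) and WT (right) replicates. The other 107 members hold 15.3% on average in o11 and 12.5% in WT, and the loci of the left-out stretches 9.73% to 13.1% in o11 and 17.3% to 20.4% in WT.

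The other 2 abundant loci outside the left-out stretches were not members because they were listed at 0 in some libraries, which can be a failed estimate. One, on chromosome 7 from 120233940 to 120236057, was listed at 39770 FPKM in o11 replicate 1 and 41485 FPKM in WT replicate 1 and at 0 in the other 4 libraries. It lies 25728 bp beyond the member at 120206897, whose level lay between 8253 and 10622 FPKM in all 6 libraries. Summed, both loci came to 50393, 8253 and 8428 FPKM in o11 and 51547, 9374 and 9130 FPKM in WT. Whether the 2 loci share reads was not tested, so the level of the member is uncertain. The other, on chromosome 8 from 125971253 to 125971501, was listed at 3819 FPKM in o11 replicate 3 and 1328 FPKM in WT replicate 3 and at 0 elsewhere.

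Members lay on all 10 chromosomes, from 3 on chromosome 10 to 20 on chromosome 1. As a share of tested loci they were most frequent on chromosome 6 (18 of 1827, 0.985%) and least on chromosome 2 (5 of 2634, 0.19%). On chromosome 6, 11 of 18 were higher in o11 in all 3 pairs and 4 lower, and on chromosome 8, 7 of 10 were higher and 2 lower. The 5 members of chromosome 2 held 0 higher in all 3 pairs and 4 lower. With so few loci per chromosome, and without the matching shares of tested loci, these counts are descriptions.

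Few members were neighbours. Only 3 groups of at least 2 members with gaps of at most 200 kb were found, each a pair. On chromosome 1 the loci at 22936909 and 22937609 lie 22 bp apart and summed to 1369, 1062 and 1606 FPKM in o11 and 1540, 1292 and 1983 FPKM in WT, a little lower in o11 in each pair. The pair on chromosome 5 at 159722272 and 159796628 summed to 2174, 2675 and 3446 FPKM in o11 and 3074, 4139 and 5702 FPKM in WT, and both of its loci fell with the block. On chromosome 6 the loci at 39087615 and 39091667 summed to 6033, 6932 and 8162 FPKM in o11 and 4762, 6311 and 4887 FPKM in WT. Both chromosome 6 loci were higher in o11 in each pair, and neither passed the test (limma adjusted p = 0.112 and 0.189 with the block). Another 3 members share their interval with a second row of the files, so that their reads may be divided, and 114 members overlap no other row.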

How the data were processed

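Libraries of 3 o11 and 3 WT kernel samples at 15 days after pollination were compared. The deposited values are FPKM per locus, made by the authors per the file headers. Per the submitters' processing notes, Bowtie 0.12.2 is listed for replicate 1, TopHat and Cufflinks (versions not given in the sources used here) for replicates 2 and 3, and B73 RefGen_v3 for all. The annotation and any scaling between libraries are not given in the sources used here. The number of fragments is not known, so no counting interval is given. Deposited starts were read as zero-based and are printed one higher. The reference table at hand is of another build, so no gene names or sequences are given.

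Log2(FPKM + 1) was tested for o11 against WT with limma 3.58.1 (R 4.3.3, mean-variance trend) over 22314 loci, those that reached 1 FPKM in 3 or more libraries, with Benjamini-Hochberg adjustment and a threshold of 0.05. Deviations of same-numbered o11 and WT libraries from their genotype means correlated at 0.75, 0.67 and 0.76 (Pearson's r over loci, limit 0.1) for replicates 1 to 3, so same-numbered libraries were treated as pairs, and values with the replicate block are given beside the others. In data simulated for this comparison over 22314 loci, 57% of 4-fold and 2% of 2-fold changes were called without the block, and 84% and 33% with it. The simulated same-numbered libraries shared a replicate effect, so the gain with the block was built in and is no support for the block. Figures were drawn with matplotlib 3.10.9.

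The members, lists and tests were chosen with earlier results of these data known. Named loci are the 10 most abundant, each called without the block, the 6 largest rises and falls called with it, the 5 closest to 0 that held, those nearest the limit of 500 FPKM, and neighbouring members; other loci named were chosen after their values were seen. Alternatives were other scalings, filters, pseudocounts, thresholds, covariates and libraries left out.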

Additional observations from a re-analysis of the deposited data

How the results depend on the processing

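Without the block, the count of members that rose (1 with all settings as stated) was 3 in limma without a trend, 3 with quantile normalization, 3 with a term for replicate 1, 0 in the libraries of replicates 2 and 3, 2 with upper-quartile scaling and 0 among members at 1000 FPKM or more; leaving out 1 library gave 0 to 0. The count that fell (0) was 1 among the 227 loci kept at 300 FPKM. With the replicate block, the paired fit, 32 rose and 19 fell. Within it these were 20 and 8 with no filter on low values, 24 and 18 with quantile normalization, 33 and 18 with upper-quartile scaling, and 6 to 36 and 2 to 21 without both libraries of a replicate. For none of these other fits, with or without the block, is the share of all tested loci given here. Whether the members moved more than the whole table thus cannot be told from these counts. In all 3 pairs, 50 of the 117 members were higher and 37 lower. At a limit of 300 FPKM these were 100 and 68 of 227 members, and at 1000 FPKM 26 and 20 of 59. The share difference ran from -0.03 to 3.90 points with 1 library left out, and was 1.51 points without both replicate 1 libraries. Of the 12 largest changes, 6 were called in every one of the 7 fits with the block, and none of the 12 changed sign. Other member limits with the block were chosen after seeing the data. They gave 56 rises and 36 falls of 227 members at 300 FPKM and 16 and 10 of 59 at 1000 FPKM. Without loci of shared intervals there were 31 and 19 of 114. In the same fit 9.83% of all tested loci rose and 9.33% fell. FPKM without fragment counts leaves the precision at short loci unknown.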
